A study of Mus musculus with 12 samples.

Results

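Glutathione transferases (GSTs) join the tripeptide glutathione to reactive, electron-poor chemicals, and this is the first step by which the body clears busulfan, an alkylating drug given before bone marrow transplantation. The conjugate is then exported from the cell and trimmed to a mercapturic acid. In the liver most of the conjugation of busulfan is credited to an alpha-class enzyme, with mu-class and pi-class enzymes contributing less. The 10 GST genes were followed here in mouse spleen and were chosen by gene symbol: Gsta4 (alpha class), Gstm1, Gstm2 and Gstm5 (mu class), Gstp1 (pi class), Gstt1 and Gstt2 (theta class), Gsto1 (omega class), and the membrane-bound Mgst1 and Mgst2. They were 10 of 18221 genes measured, and all 10 had an RPKM (the number of reads scaled to transcript length and to the total reads of the library) above 1 in each mouse. The files hold RNA levels only, so nothing about the clearing of the drug was measured.

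RNA was sequenced from the spleens of 12 male ICR mice, an outbred stock, in 4 groups of 3 mice. Con-sa mice were dosed with saline and are labelled blank for the agent. B-sa mice received a single injection of 40 mg/kg busulfan and then saline. B+Con-FMT and B+A10-FMT mice received the same busulfan dose and then a daily oral transfer of gut microbiota (FMT) for 2 weeks, from control donors or from donors dosed with alginate oligosaccharide (AOS) at 10 mg/kg. The material of each donor group was pooled, so every recipient in a group shared 1 donor pool. Treatment began at 3 weeks of age and spleens were taken at 8 weeks, so the levels describe the tissue weeks after the drug and not during its clearance. No microbiota was transferred without busulfan, so an effect of the transfer alone cannot be told apart here from its effect after busulfan.

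The libraries were similar in depth. The smallest steps in the RPKM values correspond to about 14400000 to 15200000 reads per mouse, and globin genes took 23.3% to 32.4% of the summed RPKM. Spleen was recognisable by its markers, with summed RPKM of 9 B cell genes between 1638 and 2372 and of 13 red pulp macrophage genes between 677 and 1176, and no marker gene measured was at 0 in every mouse. Transcripts of other organs were also present. The 17 pancreatic acinar genes summed to 466 in the lowest mouse and 12709 in the highest. The 9 kidney tubule genes summed to 84.8 to 131 in Con-sa against 8.55 to 73.7 in the busulfan groups. The 12 hepatocyte genes summed to 34.3 to 332 in Con-sa against 16.5 to 130 in the busulfan groups. Groups were compared with limma on log2(RPKM + 1), fitted over 12671 genes in all 12 mice, and a gene was called where its Benjamini-Hochberg adjusted p was under 0.05. A positive log2 fold change means a higher level in the first-named group, and on this scale the changes of low genes are understated.

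The 10 genes covered a wide range of levels. RPKM is scaled for transcript length, so levels can be compared between genes. Gstp1, a pi-class enzyme that also binds stress kinases, was by far the most abundant, at 189.89 to 385.90 RPKM over the 12 mice and rank 221 of 18221 genes by mean RPKM. Gstm5 came next at 46.12 to 74.71 RPKM. Gsto1 at 34.41 to 43.35 RPKM, Gstm1 at 29.83 to 46.73 RPKM and Mgst1 at 26.26 to 48.41 RPKM overlapped each other. Below them lay Gstm2 at 12.52 to 17.35 RPKM, Gsta4 at 11.81 to 17.60 RPKM and Gstt1 at 10.68 to 18.22 RPKM, whose ranges also overlapped. Mgst2 at 7.26 to 14.21 RPKM and Gstt2 at 7.69 to 11.16 RPKM were the lowest of the 10, at ranks 7358 and 7585. Gstp1 alone made up 44.24% to 61.70% of the summed RPKM of the 10 genes.

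Other GST genes put these levels in context. Of 18 further glutathione transferase genes, the membrane-bound Mgst3 was the most abundant at 171.63 to 287.24 RPKM, close to the range of Gstp1. Gsta1, the alpha-class gene with the same symbol as the human enzyme best known for conjugating busulfan, was listed at 0 in 11 of 12 mice and at 0.10 RPKM in the other. Gsta2 was listed at 0 in 10 of 12 mice, whereas Gsta3 was measured at 4.30 to 11.48 RPKM. Among the alpha-class genes, Gsta4 therefore had the highest level in these spleens. Gstp1 shares sequence with a close copy: 62.31% of the 50-base windows of its transcript also occur in transcripts of Gstp2 or a Gstp pseudogene, so its reads could be split between them, and Gstp2 itself was listed at 2.34 to 6.44 RPKM. The same share was 23.15% for Gstm1 and 9.36% for Gstm2, and it was 0 for the other 7 genes, Gstm5 and Gsta4 among them.

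**Figure D1:**
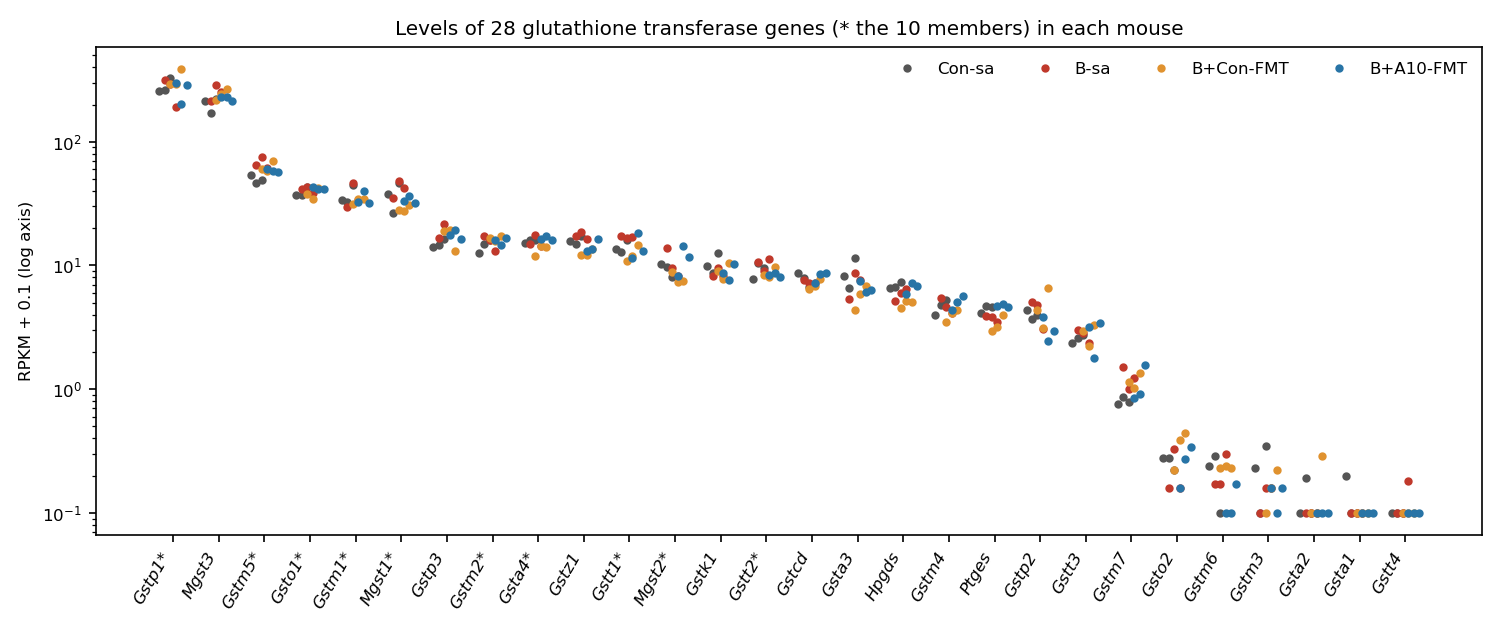
RPKM + 0.1 on a log axis for 28 glutathione transferase genes, 1 point per mouse coloured by group, ordered by mean, with the 10 genes of interest starred. Gstp1 and Mgst3 stand above all others, Gstm5 leads the next tier, and Gsta1, Gsta2 and Gstt4 lie at the floor of the plot in nearly every mouse.

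The genes lie at several places in the genome (GRCm38.p6, RefSeq). Gstm5 (chromosome 3, 107895854 to 107898685), Gstm2 (107981702 to 107986420) and Gstm1 (108012250 to 108017973) stand together in the mu cluster, and Mgst2 is on the same chromosome at 51636912 to 51682675. Gstt1 (75783813 to 75798584) and Gstt2 (75831842 to 75837419) are neighbours on chromosome 10. Gstp1 (4035411 to 4037912) and Gsto1 (47854973 to 47864790) are both on chromosome 19 but far apart, Gsta4 is on chromosome 9 at 78191966 to 78209349, and Mgst1 is on chromosome 6 at 138140527 to 138156755. Promoter sequences, 250 bases before to 50 bases after a transcript start, were at hand from RefSeq for 8 of the 10 genes, all but Gsta4 and Gstt2. They were searched on both strands for the core of the antioxidant response element, TGACNNNGC, the element through which the transcription factor Nrf2 acts on many GST genes. Only these letters were counted, and other forms of the element were not searched for. The core was found in the promoter of Gstm5 and in the upstream one of 2 promoters of Mgst1, and 12.4% of all 32851 promoters of this length hold it. These 2 promoters are shown because Gstm5 is the gene called in B-sa and because the motif is the one most often tied to GST genes. The match is in capitals, and in Mgst1 it is on the opposite strand, so the printed letters are its reverse complement. Both promoters are printed on the plus strand, Gstm5 at chr3:107895604-107895903 and Mgst1 at chr6:138140277-138140576.
Gstm5: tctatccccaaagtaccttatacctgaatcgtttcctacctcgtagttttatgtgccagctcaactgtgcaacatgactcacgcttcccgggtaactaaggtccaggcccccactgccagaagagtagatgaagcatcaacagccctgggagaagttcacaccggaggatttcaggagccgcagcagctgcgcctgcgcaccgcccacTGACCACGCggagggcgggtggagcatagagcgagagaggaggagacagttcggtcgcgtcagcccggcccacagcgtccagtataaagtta
Mgst1: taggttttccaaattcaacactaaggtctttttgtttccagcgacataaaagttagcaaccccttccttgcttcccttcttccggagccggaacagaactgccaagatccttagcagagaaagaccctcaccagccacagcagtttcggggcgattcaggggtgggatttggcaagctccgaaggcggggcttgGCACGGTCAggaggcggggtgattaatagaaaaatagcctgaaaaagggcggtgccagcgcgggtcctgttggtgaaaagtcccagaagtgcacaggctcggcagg

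The same windows were searched for a GC box (GGGCGG, in 35.7% of all promoters), a TATA box (TATAAA, in 13.6%), a CCAAT box (CCAAT, in 37.4%), a GATA site (AGATAA, in 11.2%) and an E box (CACGTG, in 7.2%). None of these letter strings is contained in another. The Gstm5 window also holds 2 matches to the GC box and 1 to the TATA box, and the Mgst1 window holds 1 match to the GC box. GC box matches were also found for Gsto1 and Gstp1, TATA box matches for Gstm1 and Mgst2, and CCAAT matches for Gstm1, Gstm2, Gstt1 and Mgst2. These letters describe the sequence and do not show that a factor binds there.

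The first comparison asks what busulfan alone left behind in the spleen. Gstm5, a mu-class enzyme that conjugates glutathione to electrophiles, was the only one of the 10 genes called in B-sa against Con-sa. It was measured at 53.26, 46.12 and 48.92 RPKM in the 3 Con-sa mice and at 65.26, 74.71 and 61.12 RPKM in the 3 B-sa mice. Every B-sa mouse lay above every Con-sa mouse. The means were 49.4 ± 3.60 RPKM (SD, n = 3) in Con-sa and 67.0 ± 6.97 RPKM (SD, n = 3) in B-sa, a log2 fold change of 0.43 with a standard error of 0.08 (95% interval 0.25 to 0.61, limma adjusted p = 0.009). Between 550 and 903 reads lie behind the level of Gstm5 in a mouse, so counting error alone is at most 4.3% of a value. The call held when any 1 of the 12 mice was left out and was lost (adjusted p = 0.0591) only where each transcript was tested on its own. Gstm5 has 1 listed transcript, so its values and its fold change (0.43) were the same in that fit. The fit differed in adjusting over transcripts instead of genes.

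A call in this comparison was common. Of all genes tested, 14.5% were called, 4.73% as higher and 9.78% as lower in B-sa, so 1 of 10 GST genes called is no more than the background. The groups did not overlap for 2 of the 10 genes, Gstm5 and Gstt1, against 34.0% of all genes. Of the 10 fold changes 7 were above 0, with a median of 0.10 against -0.044 over all genes, and the median size of the change was 0.12 for both the 10 genes and all genes.

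Markers of several cell types also differed between these groups. In bulk tissue, fewer cells of a type and less RNA per cell cannot be told apart. The summed RPKM of 9 B cell genes was 2155 to 2372 in Con-sa and 1638 to 1972 in B-sa, and 6 of the 9 were called lower. Of 13 endothelial genes 6 were called lower as well, with sums of 183 to 194 RPKM in Con-sa and 151 to 159 RPKM in B-sa. Of 13 genes of neutrophils and their precursors 5 were called higher, with sums of 2231 to 2306 RPKM in Con-sa and 3965 to 6536 RPKM in B-sa. Of 17 erythroid genes measured 5 were called higher, Gata1, Klf1, Rhag, Tfrc and Hba-a1, and 2 lower, the beta globin genes Hbb-bs and Hbb-bt, with a median change of 0.28. Globin genes together took 24.9% to 25.9% of the summed RPKM in Con-sa and 27.98% to 32.4% in B-sa, and Hbb-bs also differed widely within a treatment, at 36.4, 20930 and 4025 RPKM in the 3 B+Con-FMT mice, so these 2 genes do not show less globin in B-sa. Of 11 megakaryocyte and platelet genes 1 was called higher, with sums of 897 to 969 RPKM in Con-sa and 1116 to 1365 RPKM in B-sa. No gene of these lists was at 0 in every mouse. Their part in the higher Gstm5 was not tested.

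**Figure D2:**
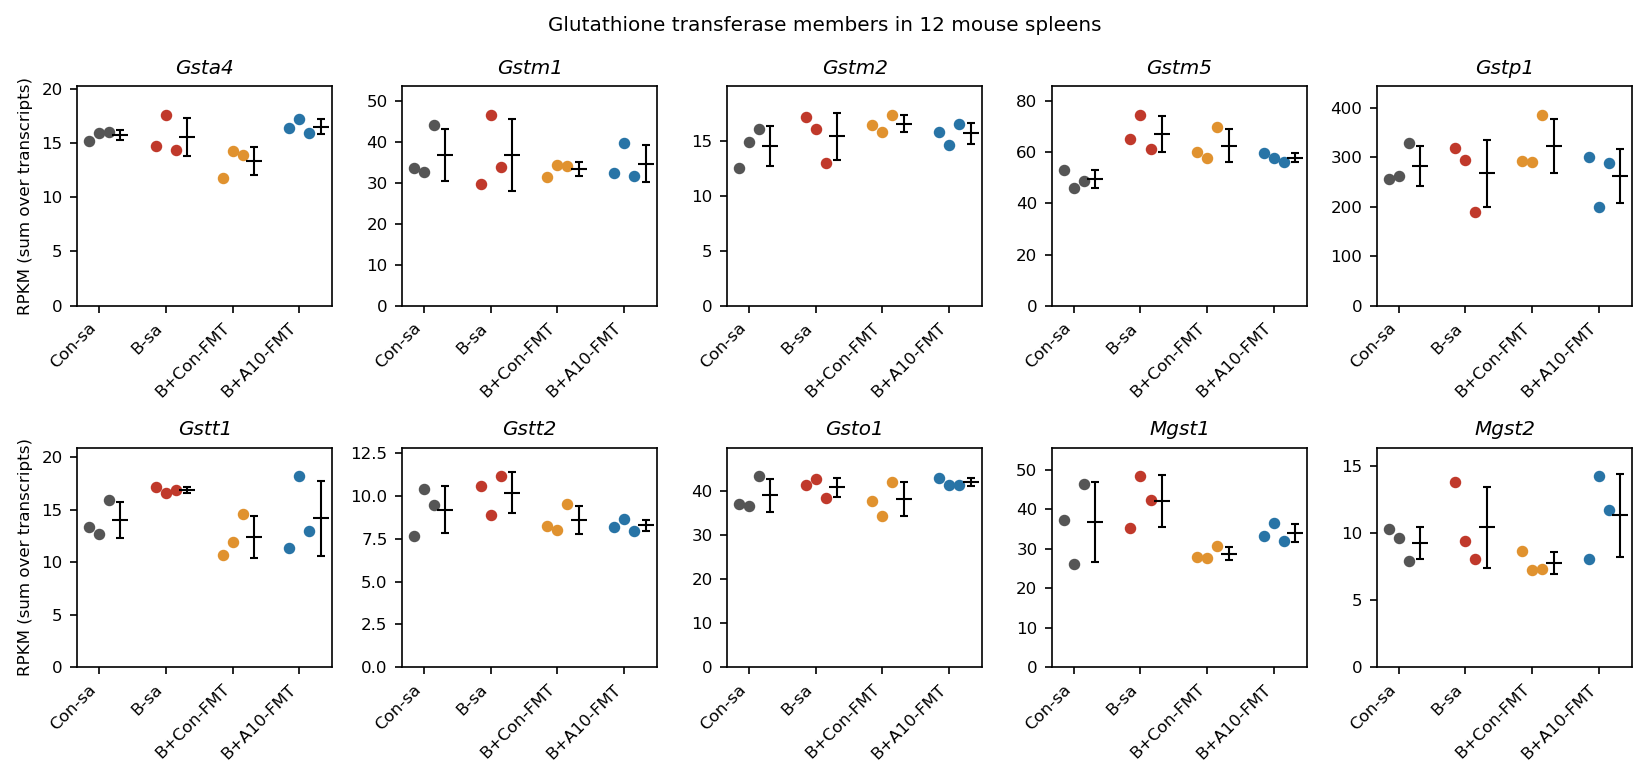
RPKM of each of the 10 genes in each mouse (points, linear axes from 0, 3 mice per group) with the group mean and SD beside them. The 3 Con-sa mice lie below the other 9 for Gstm5, and the 3 B+Con-FMT mice lie below the other 9 for Gsta4, whereas the groups overlap for Gstp1, Gstm1, Gstm2, Gsto1 and Mgst2.

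Gstm5 stayed above the saline controls in both microbiota groups. It was measured at 60.29, 57.71 and 69.78 RPKM in B+Con-FMT mice and at 59.82, 57.67 and 56.32 RPKM in B+A10-FMT mice. All 6 of these mice lay above the 3 Con-sa mice. Against Con-sa, B+Con-FMT was higher by a log2 fold change of 0.33 with a standard error of 0.08 (95% interval 0.15 to 0.51, adjusted p = 0.0311). That call was lost without Con-sa replicate 2 (0.28, adjusted p = 0.107), Con-sa replicate 3 (0.33, adjusted p = 0.0709), B+Con-FMT replicate 1 (0.36, adjusted p = 0.0649) or B+Con-FMT replicate 3 (0.25, adjusted p = 0.0981), and under 4 of 10 other settings. B+A10-FMT against Con-sa gave 0.23 with a standard error of 0.08 (95% interval 0.05 to 0.41) and was not called (adjusted p = 0.279). The 3 comparisons share the Con-sa mice. Beside the B+Con-FMT value, 8 of 13 endothelial genes were called lower (sums of 183 to 194 RPKM in Con-sa and 140 to 164 RPKM in B+Con-FMT), 3 of 9 B cell genes were called lower (2155 to 2372 RPKM and 1881 to 1972 RPKM) and 3 of 10 T cell genes were called higher (341 to 400.4 RPKM and 425 to 520 RPKM). Sums of neutrophil and precursor genes (2231 to 2306 RPKM and 2562 to 3730 RPKM) did not overlap, with none called. The same held for pancreatic acinar genes (1286 to 6783 RPKM and 8172 to 12709 RPKM). Kidney tubule genes summed to 84.8 to 131 RPKM and 24.99 to 73.7 RPKM, with 1 called lower. Their part was not tested.

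Between the busulfan groups the level of Gstm5 was not called different. B+A10-FMT mice had 57.9 ± 1.77 RPKM (SD, n = 3), each below every B-sa mouse, and the log2 fold change against B-sa was -0.20 (95% interval -0.38 to -0.02, adjusted p = 0.16). B+Con-FMT mice had 62.6 ± 6.36 RPKM (SD, n = 3) and overlapped B-sa, at -0.10 on the log2 scale (95% interval -0.28 to 0.08, adjusted p = 0.586). The 2 microbiota groups overlapped too, at -0.11 for B+A10-FMT against B+Con-FMT (95% interval -0.29 to 0.08, adjusted p = 0.428).

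Gstm1 and Gstm2, the other mu-class genes followed, were not called in any comparison. Gstm1, which detoxifies a broad range of electrophiles, was measured at 33.76, 32.72 and 44.29 RPKM in Con-sa, 29.83, 46.73 and 33.88 RPKM in B-sa, 31.49, 34.46 and 34.24 RPKM in B+Con-FMT and 32.54, 39.91 and 31.83 RPKM in B+A10-FMT. All 4 groups overlapped. Its log2 fold change in B-sa against Con-sa was -0.02 with an interval of -0.37 to 0.34. Gstm2 was measured at 12.52, 14.90 and 16.03 RPKM in Con-sa, 17.13, 16.06 and 12.99 RPKM in B-sa, 16.44, 15.79 and 17.35 RPKM in B+Con-FMT and 15.81, 14.62 and 16.50 RPKM in B+A10-FMT. These groups overlapped as well, and the B-sa against Con-sa value was 0.08 (interval -0.14 to 0.30, adjusted p = 0.621). Whether Gstm5 changed by more than its neighbours was not tested.

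Gsta4 was the only one of the 10 genes called between the 2 kinds of microbiota. Its enzyme conjugates hydroxynonenal, an aldehyde released when membrane lipids are oxidised. Gsta4 was measured at 11.81, 14.27 and 13.91 RPKM in B+Con-FMT and at 16.36, 17.23 and 15.87 RPKM in B+A10-FMT. The 2 groups did not overlap. The log2 fold change was 0.29 with a standard error of 0.08 (95% interval 0.11 to 0.47, adjusted p = 0.0426). Con-sa mice had 15.19, 15.92 and 16.00 RPKM and B-sa mice 14.71, 17.60 and 14.35 RPKM, so the 3 B+Con-FMT mice lay below all 9 others. B+Con-FMT was not called lower than Con-sa (log2 fold change -0.23, 95% interval -0.40 to -0.05, adjusted p = 0.101) or than B-sa (-0.21, 95% interval -0.38 to -0.03, adjusted p = 0.216). B+A10-FMT differed from Con-sa by 0.07 (95% interval -0.11 to 0.24) and from B-sa by 0.08 (95% interval -0.09 to 0.26).

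The Gsta4 call lay close to the threshold. It was lost when any Con-sa mouse (adjusted p = 0.058, 0.0556 and 0.0532 without replicates 1, 2 and 3), any B+Con-FMT mouse (adjusted p = 0.152, 0.0588 and 0.0524) or any B+A10-FMT mouse (adjusted p = 0.0772, 0.15 and 0.0682) was left out. The fold change without 1 mouse ran from 0.21, without B+Con-FMT replicate 1, to 0.34. The call was also lost under 6 of 10 other settings, such as a fit of these 2 groups alone (0.29, adjusted p = 0.054) and median-of-ratios scaling (0.24, adjusted p = 0.0878). Between 145 and 221 reads lie behind its level in a mouse, a counting error of at most 8.3% of a value.

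In this comparison 10.4% of all genes were called, 7.58% as higher and 2.78% as lower in B+A10-FMT, which is the background for 1 of 10 GST genes called. The groups did not overlap for 2 of the 10 genes, Gsta4 and Mgst1, against 35.0% of all genes. The median fold change of the 10 genes was 0.09 against 0.046 over all genes, with 6 above 0. Markers of some cell types moved the same way as Gsta4. Of 13 red pulp macrophage genes 7 were called higher in B+A10-FMT, with sums of 677 to 903 RPKM in B+Con-FMT and 925 to 1176 RPKM in B+A10-FMT. Of 13 endothelial genes 9 were called higher, with sums of 140 to 164 RPKM and 188 to 195 RPKM. Of 6 mast cell and basophil genes tested 1, Kit, was called higher, and the 8 genes of that list summed to 13.8 to 21.8 RPKM and 23.5 to 30.9 RPKM. No gene of these lists was at 0 in every mouse, and their part in the Gsta4 difference was not tested.

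**Figure D3:**
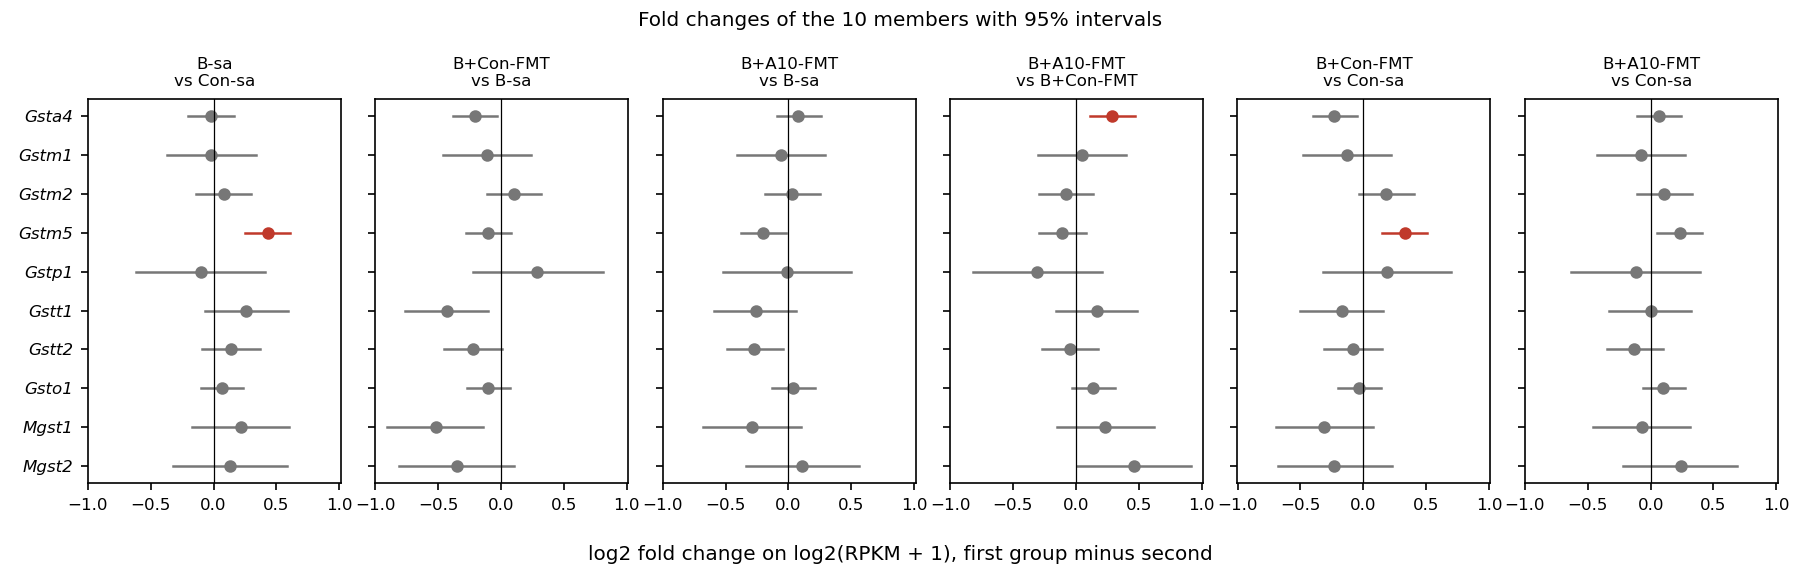
Log2 fold changes of the 10 genes in 6 comparisons, first-named group minus second, on log2(RPKM + 1), with 95% intervals from limma. Red marks the 3 calls at adjusted p under 0.05, Gstm5 in B-sa and in B+Con-FMT against Con-sa and Gsta4 in B+A10-FMT against B+Con-FMT, and most other intervals hold 0.

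Gstp1, the most abundant of the 10, varied as much within groups as between them. It was measured at 255.76, 262.67 and 328.76 RPKM in Con-sa, 317.99, 294.01 and 189.89 RPKM in B-sa, 292.13, 290.66 and 385.90 RPKM in B+Con-FMT and 299.50, 199.97 and 288.66 RPKM in B+A10-FMT. All groups overlapped, and the highest mouse was 2.03 times the lowest, the widest such ratio among the 10 genes. The SD within groups was 40.3 to 68.1 RPKM. With 1888 or more reads behind each value, counting error was at most 2.3%, which does not cover the splitting of reads with its copies. The log2 fold change in B-sa against Con-sa was -0.10 (95% interval -0.62 to 0.41, adjusted p = 0.786), and no comparison of Gstp1 was called. The sum of all 10 genes, of which Gstp1 is the largest share, was 507 ± 60.8 RPKM in Con-sa, 522 ± 80.9 RPKM in B-sa, 544 ± 70.3 RPKM in B+Con-FMT and 497 ± 42.7 RPKM in B+A10-FMT (SD, n = 3 each), and the groups overlapped.

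Gstt1 and Gstt2 belong to the theta class, which handles small reactive molecules. Gstt1 was measured at 13.41, 12.69 and 15.96 RPKM in Con-sa, 17.17, 16.63 and 16.94 RPKM in B-sa, 10.68, 11.91 and 14.59 RPKM in B+Con-FMT and 11.37, 18.22 and 13.02 RPKM in B+A10-FMT. The B-sa mice lay above all Con-sa and all B+Con-FMT mice, while 1 B+A10-FMT mouse was the highest of all. B-sa against Con-sa gave a log2 fold change of 0.26 (95% interval -0.07 to 0.59, adjusted p = 0.257) and B+Con-FMT against B-sa gave -0.43 (95% interval -0.76 to -0.10, adjusted p = 0.169). Gstt2 was measured at 7.69, 10.39 and 9.48 RPKM in Con-sa, 10.56, 8.89 and 11.16 RPKM in B-sa, 8.27, 7.99 and 9.56 RPKM in B+Con-FMT and 8.20, 8.66 and 7.98 RPKM in B+A10-FMT. The B+A10-FMT mice lay below all B-sa mice, at -0.27 on the log2 scale (95% interval -0.49 to -0.04, adjusted p = 0.142). None of these differences was called.

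Gsto1, an omega-class enzyme that reduces dehydroascorbate and arsenic compounds more than it conjugates, had the narrowest range of the 10 genes, with the highest mouse 1.26 times the lowest. It was measured at 37.06, 36.69 and 43.35 RPKM in Con-sa, 41.29, 42.76 and 38.37 RPKM in B-sa, 37.79, 34.41 and 42.13 RPKM in B+Con-FMT and 42.98, 41.44 and 41.39 RPKM in B+A10-FMT. The groups overlapped in all 6 comparisons and no call was made. Its interval in B-sa against Con-sa ran from -0.10 to 0.23.

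Mgst1 and Mgst2 are membrane-bound enzymes unrelated in fold to the soluble classes, and Mgst2 can also make cysteinyl leukotrienes. Mgst1 was measured at 37.41, 26.26 and 46.43 RPKM in Con-sa, 35.26, 48.41 and 42.48 RPKM in B-sa, 27.99, 27.59 and 30.68 RPKM in B+Con-FMT and 33.35, 36.55 and 32.05 RPKM in B+A10-FMT. The 3 B+Con-FMT mice lay below all B-sa and all B+A10-FMT mice, while the Con-sa mice spread over nearly the whole range. The log2 fold change in B+Con-FMT against B-sa was -0.52 with a standard error of 0.17 (95% interval -0.91 to -0.14), the largest of the 10 genes in any comparison, and was not called (adjusted p = 0.164). Against Con-sa it was -0.31 (adjusted p = 0.283), and it was called only without Con-sa replicate 2, the lowest control (-0.52, adjusted p = 0.0456). In Con-sa replicates 1, 2 and 3 the 12 hepatocyte genes summed to 159, 34.3 and 332 RPKM, the same order as Mgst1. The 10 adipocyte genes, at 205, 138 and 256 RPKM, had that order too. The part of these genes in the Mgst1 levels was not tested. Mgst2 was measured at 10.25, 9.59 and 7.93 RPKM in Con-sa, 13.81, 9.35 and 8.08 RPKM in B-sa, 8.67, 7.26 and 7.34 RPKM in B+Con-FMT and 8.07, 14.21 and 11.67 RPKM in B+A10-FMT. All groups overlapped, and the value for B+A10-FMT against B+Con-FMT was 0.46 (95% interval 0.01 to 0.92, adjusted p = 0.166). Mgst2 had the fewest reads, an estimated 49 to 98 per mouse, with a counting error of up to 14.3% of a value. The estimate takes the RPKM summed over its transcripts and the length of the main transcript, which holds 70.61% of that sum.

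No GST gene of the 10 was called in the other 3 comparisons. In B+Con-FMT against B-sa, 0.844% of all genes were called, 0.623% as higher and 0.221% as lower. At an unadjusted limma p under 0.05 this comparison had 3 of the 10 genes, Gsta4, Gstt1 and Mgst1, against 18.4% of all genes, and the same 3 were the genes without overlap, against 19.4% of all genes. All 3 were lower in B+Con-FMT. Of the 10 fold changes 8 were below 0, with a median of -0.16 against -0.004 over all genes, and the median size of the change was 0.21 against 0.09. Marker sums that did not overlap between these groups were those of 10 adipocyte genes, 147 to 339 RPKM in B-sa and 54.1 to 142 RPKM in B+Con-FMT, of 17 pancreatic acinar genes, 466 to 3290 RPKM and 8172 to 12709 RPKM, of 10 T cell genes, 329 to 417 RPKM and 425 to 520 RPKM, of 13 genes of neutrophils and their precursors, 3965 to 6536 RPKM and 2562 to 3730 RPKM, and of 9 kidney tubule genes, 11.8 to 23.3 RPKM and 24.99 to 73.7 RPKM. Of these lists only 1 gene was called, Cd3e of the T cell list, and no gene was at 0 in every mouse. Their part in the lower levels was not tested.

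In B+A10-FMT against B-sa, 5.27% of all genes were called, 4.0% as higher and 1.27% as lower. Gstm5 and Gstt2 had an unadjusted p under 0.05, against 24.5% of all genes, and both were also without overlap, against 27.0% of all genes. Both were lower in B+A10-FMT, and the median fold change of the 10 genes was -0.04 against 0.046. In B+A10-FMT against Con-sa, 0.410% of all genes were called, 0.118% as higher and 0.292% as lower. Gstm5 alone had an unadjusted p under 0.05 (13.5% of all genes) and alone did not overlap (21.6% of all genes). The median of the 10 genes was 0.03 against 0.005. B+Con-FMT against Con-sa, where Gstm5 was called, had 8.87% of all genes called, 2.30% as higher and 6.57% as lower. Gstm5, higher, and Gsta4, lower, did not overlap there, against 34.1% of all genes, and the median of the 10 genes was -0.10 against -0.041. In all, 3 of 60 tests of these genes were called, in 6 comparisons that called 0.410% to 14.5% of all genes and share groups of mice.

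Among the other glutathione transferases, 12 of 18 were tested. None was called in B-sa against Con-sa. Gstz1, which isomerises maleylacetoacetate in tyrosine breakdown, was the 1 gene called in B+Con-FMT against B-sa, where 0.221% of all genes were called lower, and fell from 17.3 ± 1.12 to 12.6 ± 0.841 RPKM (SD, n = 3), a log2 fold change of -0.43 (adjusted p = 0.0412). It was also called lower in B+Con-FMT against Con-sa (-0.30, adjusted p = 0.0478). Hpgds and Ptges, which make prostaglandins with glutathione as a cofactor, were the 2 of 12 called in B+A10-FMT against B+Con-FMT, where 7.58% of all genes were called higher. Hpgds went from 4.83 ± 0.322 to 6.57 ± 0.683 RPKM (0.37, adjusted p = 0.0249) and Ptges from 3.26 ± 0.512 to 4.61 ± 0.123 RPKM (0.40, adjusted p = 0.0181). With Gstz1 they make 3 of 12 called lower in B+Con-FMT against Con-sa, where 6.57% of all genes were, at -0.42 for Hpgds (adjusted p = 0.0182) and -0.34 for Ptges (adjusted p = 0.038). Beside them, 7 of 13 red pulp macrophage genes, 9 of 13 endothelial genes and Kit of the mast cell list were called higher in B+A10-FMT against B+Con-FMT, and 8 of 13 endothelial genes and 2 of 6 mast cell and basophil genes tested, Cma1 and Kit, were called lower in B+Con-FMT against Con-sa. In the latter 3 of 9 B cell genes, Pdgfra, Pdgfrb and the kidney gene Slc34a1 were also called lower, and 3 of 10 T cell genes and Gata1 higher. In B+Con-FMT against B-sa, adipocyte and neutrophil sums were lower, and T cell, pancreatic acinar and kidney tubule sums higher, without overlap. Their part was not tested.

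GSTs depend on the supply of glutathione. Of 20 genes for glutathione synthesis and turnover 16 were tested, and in B-sa against Con-sa 4 rose and none fell, against 4.73% and 9.78% of all genes, with a median of 0.08 against -0.044 over all genes. Gclm, the modifier subunit of the rate-limiting ligase, rose from 83.3 ± 5.45 to 104 ± 12.4 RPKM (0.31, adjusted p = 0.0223). The amino acid transporter genes Slc3a2 (0.26, adjusted p = 0.0113) and Slc1a5 (0.32, adjusted p = 0.0314) rose as well. The fourth, Chac2, breaks glutathione down and rose from 65.6 ± 5.11 to 84.4 ± 13.3 RPKM (0.35, adjusted p = 0.0291). In B+A10-FMT against B-sa, where 1.27% of all genes were called lower, 2 of the 16 fell, Slc1a5 (-0.34, adjusted p = 0.0432) and Slc3a2 (-0.21, adjusted p = 0.0464). No gene of the list was called in the other 4 comparisons. Beside these 2 falls, 4 of 13 red pulp macrophage genes, 5 of 13 endothelial genes, Kit, Hbb-bs and Hbb-bt were called higher. The markers called lower there were 3 of 9 mesothelial genes, Hba-a1, Dcn and Kap. The part of these markers was not tested.

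For the export of conjugates and the mercapturate steps, 11 of 14 genes were tested. In B-sa against Con-sa 1 rose and 1 fell, against 4.73% and 9.78% of all genes. Abcg2, an export pump that is also abundant in red cell precursors, rose in B-sa from 40.6 ± 3.51 to 51.6 ± 5.90 RPKM (0.34, adjusted p = 0.0205). Acy3, a deacylase of mercapturates that is highest in kidney, fell from 5.90 ± 1.33 to 3.34 ± 0.337 RPKM (-0.65, adjusted p = 0.042). Beside it, 3 of 4 kidney tubule genes tested were called lower in the same comparison, with sums of 84.8 to 131 RPKM in Con-sa and 11.8 to 23.3 RPKM in B-sa, and their part in the fall of Acy3 was not tested. Acy1, a related deacylase, was called lower in B+A10-FMT against both B-sa (-0.30, adjusted p = 0.0218) and Con-sa (-0.33, adjusted p = 0.0434), where 1.27% and 0.292% of all genes were called lower. Of the 4 kidney tubule genes tested 1 was called lower in the first of these comparisons and 3 in the second, with sums of 8.55 to 10.98 RPKM in B+A10-FMT, and their part was not tested either.

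Peroxidases and thiol reductases, most of which use glutathione or thioredoxin, were listed together with catalase and superoxide dismutases, and had the most calls of the 5 related lists. All 24 were tested, and in B-sa against Con-sa 9 rose and 1 fell, against 4.73% and 9.78% of all genes, with a median of 0.18 against -0.044 over all genes. Thioredoxin, Txn1, rose from 122 ± 8.87 to 167 ± 18.2 RPKM (0.44, adjusted p = 0.00675). Prdx2, a peroxiredoxin abundant in red cells, rose from 521 ± 33.6 to 670 ± 69.0 RPKM (0.36, adjusted p = 0.00793), and Gpx1 rose from 1010 ± 96.4 to 1293 ± 132 RPKM (0.36, adjusted p = 0.0123). Glrx rose by 0.33 (adjusted p = 0.0155). In B+A10-FMT against B-sa 3 of the 24 fell, Prdx2 among them (-0.27, adjusted p = 0.039), against 1.27% of all genes. In B+Con-FMT against Con-sa 4 rose and 1 fell, against 2.30% and 6.57% of all genes, and in B+A10-FMT against B+Con-FMT 1 rose and 2 fell, against 7.58% and 2.78%. None was called in the other 2 comparisons. In B+A10-FMT against B-sa 4 of 13 red pulp macrophage genes and 5 of 13 endothelial genes were called higher, and 3 of 9 mesothelial genes lower. Of the erythroid genes Hba-a1 was called lower there and Hbb-bs and Hbb-bt higher. The part of these markers in the falls was not tested.

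Of 20 genes of the Nrf2 pathway, the regulator of many detoxifying enzymes, 5 rose and 2 fell in B-sa against Con-sa, against 4.73% and 9.78% of all genes, with a median of 0.11 against -0.044 over all genes. Taldo1, an enzyme of the pentose phosphate route, rose from 216 ± 1.32 to 256 ± 12.05 RPKM (0.24, adjusted p = 0.00783). Blvrb, a reductase of heme breakdown, rose by 0.37 (adjusted p = 0.0187), and Gclm belongs to this list too. Hmox1, which opens the heme ring, was the only one of the 20 called in B+A10-FMT against B+Con-FMT, where 7.58% of all genes were called higher, at 253 ± 25.7 RPKM in B+Con-FMT and 379 ± 42.2 RPKM in B+A10-FMT (0.58, adjusted p = 0.0164). The red pulp macrophage genes, 7 of 13 called higher in this comparison, moved the same way, and their part was not tested. In B+Con-FMT against Con-sa 1 rose and 2 fell (2.30% and 6.57% of all genes), in B+Con-FMT against B-sa 1 fell (0.221% of all genes), and none was called in the other 2 comparisons. Beside the calls of these lists in B-sa against Con-sa, 5 of 17 erythroid genes were called higher and 2 lower, with a median of 0.28 against -0.044 over all genes. The 13 erythroid genes that are not globins summed to 2435 to 2673 RPKM in Con-sa and 2541 to 3329 RPKM in B-sa. Of 13 genes of neutrophils and their precursors 5 were called higher, with a median of 1.09. Of 11 megakaryocyte and platelet genes 1 was called higher, with a median of 0.38. Called lower were 6 of 9 B cell genes and 6 of 13 endothelial genes. The part of these genes in the calls was not tested.

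**Figure D4:**
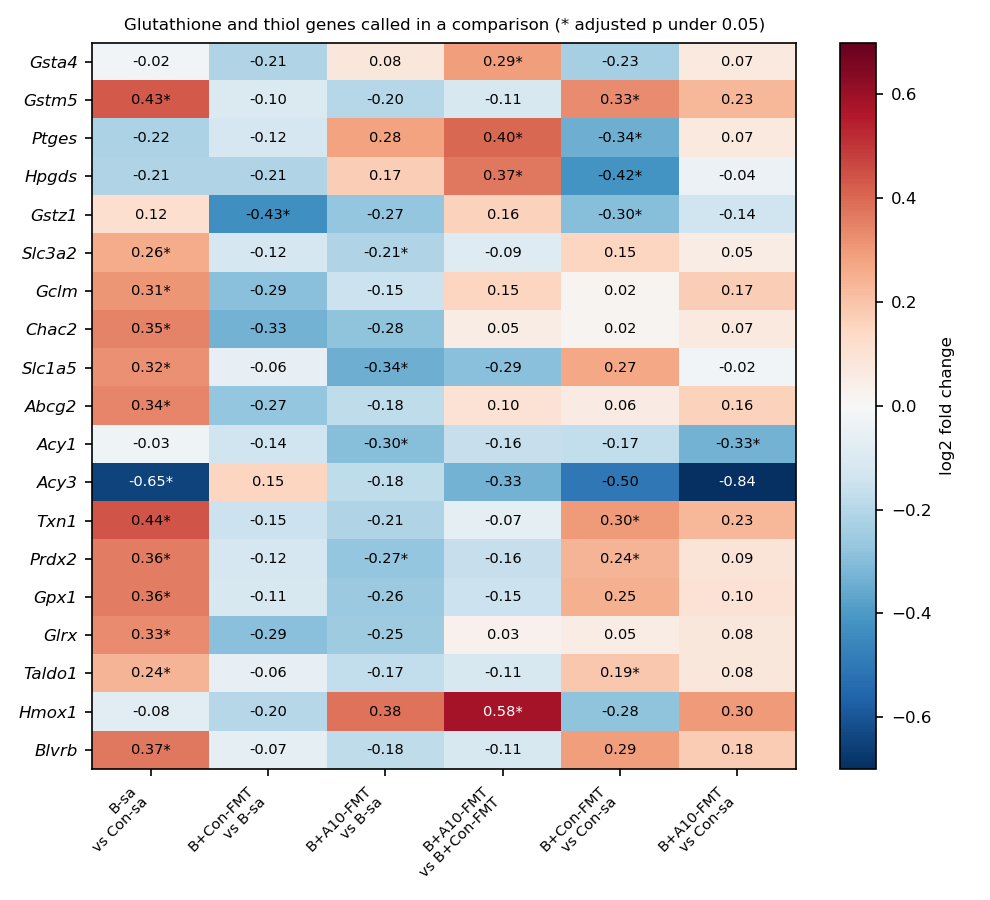
Log2 fold changes, on log2(RPKM + 1), of Gsta4, Gstm5 and up to 4 called genes from each of 5 related lists in the 6 comparisons, with an asterisk where the adjusted p was under 0.05 (the colour of Acy3 at -0.84 is at the end of the scale). Gstm5, Slc3a2, Gclm, Chac2, Slc1a5, Abcg2, Txn1, Prdx2, Gpx1, Glrx, Taldo1 and Blvrb carry a positive call in B-sa against Con-sa, and Gsta4, Ptges, Hpgds and Hmox1 carry one in B+A10-FMT against B+Con-FMT.

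The genes whose levels ran most like those of the 2 called GST genes were looked up among 12670 other genes, by Pearson's r of log2(RPKM + 1) over the 12 mice, as a description. For Gstm5 they were Nanp, a phosphatase of sialic acid synthesis (r = 0.984), Vdac1, the mitochondrial outer membrane channel (r = 0.950), and Ppm1g, a protein phosphatase (r = 0.945). With the group means removed r was 0.949, 0.959 and 0.923, so these genes ran together within groups too. Nanp was at 21.79 to 24.21 RPKM in Con-sa and 28.02 to 33.39 RPKM in B-sa. For Gsta4 they included Tnfsf13, the B cell survival factor APRIL (r = 0.921), and Lrrc25, a leukocyte surface protein (r = 0.920), or 0.808 and 0.884 with the group means removed. Lrrc25 was at 8.10 to 15.69 RPKM in B+Con-FMT and 16.99 to 23.46 RPKM in B+A10-FMT. Among the 10 GST genes themselves the closest pair was Gstm2 and Gstp1 (r = 0.78, and 0.85 with the group means removed), followed by Gstm1 and Mgst1 (0.71 and 0.79). These pairs were picked as the highest, from 12 mice that also differ in cell makeup.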

How the data were processed

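RNA of 12 mouse spleens (4 groups of 3) was sequenced. The deposited files hold RPKM values per RefSeq transcript, 60654 in all, which the authors computed from aligned reads. The submitters' processing notes name HISAT, Bowtie2 and mm10 and their protocol a BGISEQ library, whereas the study's methods describe Illumina sequencing, SOAPaligner and DEGseq, so which steps made the values is not settled in the sources used here. No read counts were used. RPKM was summed over the transcripts of each gene (18221 genes). Groups were taken from the agent label. Replicate numbers come from the titles, and no source says whether the mice came from separate litters, so p-values measure the spread between these mice. RPKM is relative to a library's total, so a rise of abundant genes lowers the others.

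A gene entered the tests if 3 or more mice had an RPKM of 1 or higher (12671 genes). limma 3.58.1 in R 4.3.3 was run with its trended and robust empirical Bayes options on log2(RPKM + 1), with all 12 mice in 1 fit, 8 residual degrees of freedom and Benjamini-Hochberg adjustment over all genes tested in each of 6 comparisons. The script was tested on simulated data. Fits were repeated under 10 other settings and without each mouse. A single gene compared by exact permutation of 3 against 3 mice could not go below p = 0.1, so no such test was run. Read numbers were estimated from the smallest RPKM steps and transcript lengths, and errors from them cover counting only. Windows of 50 bases were matched between transcripts of the reference (GRCm38.p6). Promoters are from RefSeq (GRCm38.p6). The 10 genes and all gene lists were chosen with earlier results of these data known. Named from each related list were the up to 4 called genes with the smallest adjusted p over the 6 comparisons, and for each called GST gene the 3 genes most like it, of which 1 is not reported here.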

Additional observations from a re-analysis of the deposited data

How the results depend on the processing

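Results were recomputed under 10 other settings and without each mouse in turn. Of the 3 calls, Gstm5 in B-sa against Con-sa was kept except where each transcript was tested on its own (no GST gene of the 10 called, so 0), with log2 fold changes of 0.43 to 0.48 and adjusted p of 0.00616 to 0.0591 over the settings and 0.00714 to 0.0424 without 1 mouse. For Gsta4 in B+A10-FMT against B+Con-FMT the count fell to 0 with no filter, in a fit of 2 groups only, with median-of-ratios scaling, with NM transcripts only, with each transcript on its own and without the trend and robust settings (adjusted p 0.0145 to 0.154 over all settings). For Gstm5 in B+Con-FMT against Con-sa it fell to 0 with no filter, with the replicate block, with NM transcripts only and with each transcript on its own (adjusted p 0.0178 to 0.126), and rose to 2 when libraries were scaled to equal totals of all but globin RPKM, where Gsta4 was called lower (-0.27, adjusted p = 0.0419). Without 1 mouse the counts ran from 0 to 1 in these last 2 comparisons. Gstm5 and Gsta4 have 1 listed transcript each, so their values were unchanged with NM transcripts only and with each transcript on its own. Those fits changed which features entered the estimate of spread and the adjustment. What moved the calls in the other settings was not tested.

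Replicate numbers are shared by the groups but no source says that a number marks a shared litter, batch or day, and same-numbered mice did not deviate together in every pair (r = -0.373 to 0.303, with 0 to 4 of 6 mice closest to their own number in a comparison). With the replicate block Gstm5 in B+Con-FMT against Con-sa was not called (adjusted p = 0.057), 417 instead of 668 genes were called in B+A10-FMT against B-sa, and the other 2 calls held.

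Counts of all genes called moved by more than 1.5 times as follows. B-sa against Con-sa went from 1838 to 972 in a fit of 2 groups, 741 with NM transcripts and 132 with each transcript. B+Con-FMT against B-sa went from 107 to 71 with no filter, 32 with 2 groups, 180 with equal totals, 25 with NM transcripts and 6 with each transcript. B+A10-FMT against B-sa went from 668 to 158 with 2 groups, 203 with NM transcripts and 14 with each transcript. B+A10-FMT against B+Con-FMT went from 1312 to 2338 with equal totals, 546 with NM transcripts and 106 with each transcript. B+Con-FMT against Con-sa went from 1124 to 1837, 382 and 86 in the same 3 settings, and B+A10-FMT against Con-sa went from 52 to 1 with NM transcripts and 1 with each transcript. Without 1 mouse the 6 counts, in the same order, ran from 510 (without B-sa replicate 2) to 2100, 19 (without B-sa replicate 2) to 468 (without B-sa replicate 1), 106 (without B+A10-FMT replicate 2) to 833, 222 (without B+A10-FMT replicate 2) to 1559, 337 (without Con-sa replicate 1) to 1308 and 1 (without B+A10-FMT replicate 1) to 75.

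Fold changes that changed sign under a setting or without 1 mouse were not called in any comparison they concern. Median-of-ratios scaling gave 0.03 for Gsta4 and 0.03 for Gstm1 in B-sa against Con-sa, -0.02 for Gstm2 and -0.01 for Gsto1 in B+A10-FMT against B-sa, -0.0 for Gstm1 in B+A10-FMT against B+Con-FMT and 0.02 for Gsto1 in B+Con-FMT against Con-sa. Equal totals gave 0.01 for Gstt2 in B+A10-FMT against B+Con-FMT and 0.01 for Gstt1 in B+A10-FMT against Con-sa. NM transcripts and each transcript gave 0.0007 for Gstt2 in B+Con-FMT against Con-sa. Without 1 mouse, B-sa against Con-sa ran from -0.10 to 0.03 for Gsta4, -0.20 to 0.12 for Gstm1, -0.01 to 0.19 for Gstm2, -0.25 to 0.12 for Gstp1 and -0.07 to 0.28 for Mgst2. B+Con-FMT against B-sa ran from -0.25 to 0.07 for Gstm1 and -0.01 to 0.18 for Gstm2. B+A10-FMT against B-sa ran from -0.20 to 0.12 for Gstm1, -0.08 to 0.11 for Gstm2, -0.24 to 0.17 for Gstp1, -0.003 to 0.07 for Gsto1 and -0.06 to 0.31 for Mgst2. B+A10-FMT against B+Con-FMT ran from -0.05 to 0.11 for Gstm1, -0.01 to 0.30 for Gstt1 and -0.09 to 0.02 for Gstt2. B+Con-FMT against Con-sa ran from -0.21 to 0.01 for Gstm1, -0.19 to 0.01 for Gstt2 and -0.11 to 0.04 for Gsto1. B+A10-FMT against Con-sa ran from -0.18 to 0.06 for Gstm1, -0.22 to 0.07 for Gstp1, -0.18 to 0.13 for Gstt1 and -0.29 to 0.11 for Mgst1. Groups of 3 mice limit what can be called, and RPKM values carry no exact counts, so depth enters no test.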

Other observations

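Levels of the 10 GST genes were set beside the summed markers of 14 cell types over the 12 mice, 140 relations in all. By Pearson's r, 2 had a Benjamini-Hochberg adjusted permutation p under 0.05, and by Spearman's rho none had. Gsta4 ran with the summed RPKM of 8 mast cell and basophil genes (r = 0.93, permutation p = 4e-05, adjusted p = 0.0056, rho = 0.84, permutation p = 0.00119, adjusted p = 0.0931). Leaving out the 2 mice farthest from the median gave r = 0.84, and removing the group means gave r = 0.90. The 8 genes summed to only 13.8 to 30.9 RPKM, and 2 of them were below 1 RPKM in every mouse. Kit alone was at 6.54 to 9.71 RPKM. Gstm5 ran against the summed RPKM of 9 B cell genes (r = -0.91, permutation p = 0.00022, adjusted p = 0.0154, rho = -0.83, permutation p = 0.00133, adjusted p = 0.0931), with r = -0.78 without the 2 farthest mice and r = -0.69 with the group means removed. The groups differ in both measures, so these values describe the 12 mice together.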
